A study of Rattus norvegicus with 10 samples.

Results

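The ribosomal RNA rows Rn45s, Rn28s and Rn5-8s were described together with LOC257642 and Rmrp in 10 hippocampal libraries. These 5 rows were taken by symbol from the 17168 gene symbols of the count table and of the normalised table, and all 5 were present in both. They were chosen by their levels and ratios in treated and untreated animals, so their own group differences are given as descriptions and carry no test.

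The libraries came from the left hippocampus of 10 female transgenic TgF344 rats (genotype Tg-AD) killed at 11 months of age after anaesthesia and perfusion. In this strain the transgenes are driven by the mouse prion promoter, and both groups carry them. The 5 untreated animals ate ordinary rodent chow. From 5 months of age on, the 5 RG2833 animals ate chow that held 750 mg of RG2833 per kg, for 6 months. RG2833 inhibits the histone deacetylases HDAC1 and HDAC3. A blue food dye told the chows apart. The comparison asks how the drug affects hippocampal gene expression, and it has no wild-type animals. The labels give 1 library per numbered animal and do not mention pooling.

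Ribosomal RNA is transcribed in the nucleolus by RNA polymerase I as a long 45S precursor, which is cut and modified to give the 18S, 5.8S and 28S RNAs of the ribosome. Rmrp is the RNA of RNase MRP, a ribonucleoprotein made with protein subunits that it shares with RNase P. It is transcribed by RNA polymerase III and takes part in cutting the precursor between the 18S and 5.8S parts. None of these RNAs carries a long poly(A) tail, and the libraries were made with a kit that selects poly(A) RNA. The counts are therefore what remained after that selection. The amount of such RNA that the tissue held and the amount that passed the selection cannot be told apart, nor can fewer cells of a type and less RNA per cell.

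What each row can hold was looked up in the RefSeq gene table of assembly GRCr8, which names 3 of the 5 members under the same symbol. Rn45s has 8679 nt there, Rn28s 4806 nt and Rn5-8s 156 nt. The table holds 159 entries of the type rRNA, of which 6 are longer than 1500 nt, and the Rn18s entry lies inside Rn45s. The count table has no Rn18s row, so reads of the 18S RNA can be counted in Rn45s. The mature 28S and 5.8S sequences are also part of the precursor, so the division of reads between Rn45s, Rn28s and Rn5-8s was an estimate made by the authors' counting. The gene formerly called Rmrp is listed there as Rpph1, with the synonym Rmrp, the type RNase MRP RNA and a length of 257 nt. Rpph1 is otherwise the name of the RNase P RNA, so which of these RNAs the row holds is uncertain, and it is called Rmrp here as in the files. LOC257642 is named in the deposited table as an rRNA promoter binding protein and had no entry under that symbol, so it is not called a ribosomal RNA here.

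The deposited estimated counts bear on how far reads were shared. A count that is not whole (by more than 0.005) means that a read was counted only in part, as when it is divided between genes. The counts of Rn45s, Rn28s and LOC257642 were not whole in 10 of 10 animals. Those of Rn5-8s were not whole in 5 animals, which are the 5 with any count. Those of Rmrp were whole in all 10. Among the 11791 genes tested, 10.9% had counts that were not whole in every animal. LOC257642 thus held reads that were counted only in part. They may be shared with another gene, and which gene that would be is not recorded in the tables.

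Total estimated counts ranged from 8764266 to 11311673 per library, so that 3 counts, the floor used here, corresponded to 0.265 to 0.342 CPM (counts scaled to a library total of 1000000). On the first principal component of all tested genes, untreated replicate 4 (score 11.5) lay within the range of the RG2833 animals (9.18 to 25.3), away from the other untreated animals (-27.8 to -13.8). The members' differences without that animal are given beside them. All marker lists of the hippocampus were detected, and none of their genes was at 0 in every library. The summed level of 6 excitatory neuron markers was 2322 to 4087 CPM in untreated and 4045 to 4631 CPM in RG2833 animals. That of 6 choroid plexus markers was 5.21 to 2455 and 4.60 to 44.7 CPM, and that of 4 endothelial markers was 166 to 253 and 149 to 167 CPM. Their part in the members' differences was not tested.

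Rn45s, the precursor row, had the highest mean level of all tested genes in both groups. Its deposited level, which is CPM after TMM scaling, was 24719.6, 46131, 44289.7, 22342 and 26225 in untreated replicates 1 to 5. In RG2833 replicates 1 to 5 it was 15881, 15873, 9258, 11175 and 11020.4. Each RG2833 animal lay below each untreated animal, and the untreated animals themselves fell into a higher pair (replicates 2 and 3) and 3 lower animals. The untreated mean was 32741 ± 11485 CPM (SD, n = 5) and the RG2833 mean 12642 ± 3048 CPM (SD, n = 5), a fitted log2 difference of -1.37. The 2.06-fold range among untreated animals was smaller than the 2.59-fold difference between the means. Without untreated replicate 4 the log2 difference was -1.48.

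Rn28s, the row of the large-subunit RNA, differed less. Its level was 3928, 6097, 7984, 4425 and 3463 CPM in untreated replicates 1 to 5 and 3815, 3891, 1821, 3264 and 2608 CPM in RG2833 replicates 1 to 5. The groups overlapped, since RG2833 replicates 1 and 2 lay above untreated replicate 5. The untreated mean was 5179 ± 1857 CPM (SD, n = 5) and the RG2833 mean 3080 ± 872 CPM (SD, n = 5). This is a fitted log2 difference of -0.75, and without untreated replicate 3, the highest animal, it was -0.55. The 2.31-fold range among untreated animals exceeded the 1.68-fold difference between the means. Without untreated replicate 4 it was -0.80.

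LOC257642 had the largest difference of the members that the fit could take. Untreated replicates 1 to 5 had 364, 562, 414, 128 and 139 CPM, and RG2833 replicates 1 to 5 had 9.40, 25.0, 32.0, 33.3 and 11.5 CPM. The groups did not overlap, and the 4.39-fold range among untreated and 3.55-fold range among RG2833 animals were both smaller than the 14.4-fold difference between the means. The mean was 321 ± 186 CPM (SD, n = 5) against 22.2 ± 11.2 CPM (SD, n = 5), a fitted log2 difference of -3.85 (-4.05 without untreated replicate 4). In treated animals the order of LOC257642 was not that of Rn45s. RG2833 replicate 1 had the highest Rn45s level of its group and the lowest LOC257642 level, and RG2833 replicate 3 had the lowest Rn45s level and the second highest LOC257642 level.

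Rn5-8s, the row of the 5.8S RNA, rested on very few counts. Its estimated counts were 11.99, 1.99, 2.84, 2.1 and 4.08 in untreated replicates 1 to 5 and 0 in each RG2833 animal. Only untreated replicates 1 and 5 lay above the floor of 3 counts. Summed over the group, 23 rounded counts in the untreated animals stood against 0 in the RG2833 animals. Set against a floor of 3 counts over the RG2833 group, the untreated level was 7.86-fold higher, and without untreated replicate 1 it was 4.57-fold higher. These values depend on the floor chosen and are not lower bounds. On the log2 scale the difference from the floor was -2.98, and without untreated replicate 4 it was -3.19. The row did not pass the filter on low counts and was not in the fit.

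Rmrp was also rare, and its groups overlapped. Untreated replicates 1 to 5 had 14, 49, 29, 15 and 14 counts (1.59, 4.89, 2.70, 1.40 and 1.48 CPM). RG2833 replicates 1 to 5 had 18, 11, 5, 8 and 12 counts (1.73, 0.981, 0.515, 0.826 and 1.25 CPM). RG2833 replicate 1 lay above 3 of the 5 untreated animals, and the other 4 RG2833 animals lay below every untreated animal. Counting error was wide. The exact 95% Poisson interval ran from 3.61 to 6.46 CPM in untreated replicate 2 and from 0.167 to 1.2 CPM in RG2833 replicate 3, and such intervals cover counting error only. The mean was 2.41 ± 1.48 CPM (SD, n = 5) against 1.06 ± 0.457 CPM (SD, n = 5), a fitted log2 difference of -1.18. Without untreated replicate 2, the highest animal, the log2 difference was -0.75, and without untreated replicate 4 it was -1.33. The 3.49-fold range among untreated animals exceeded the 2.28-fold difference between the means.

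**Figure D1:**
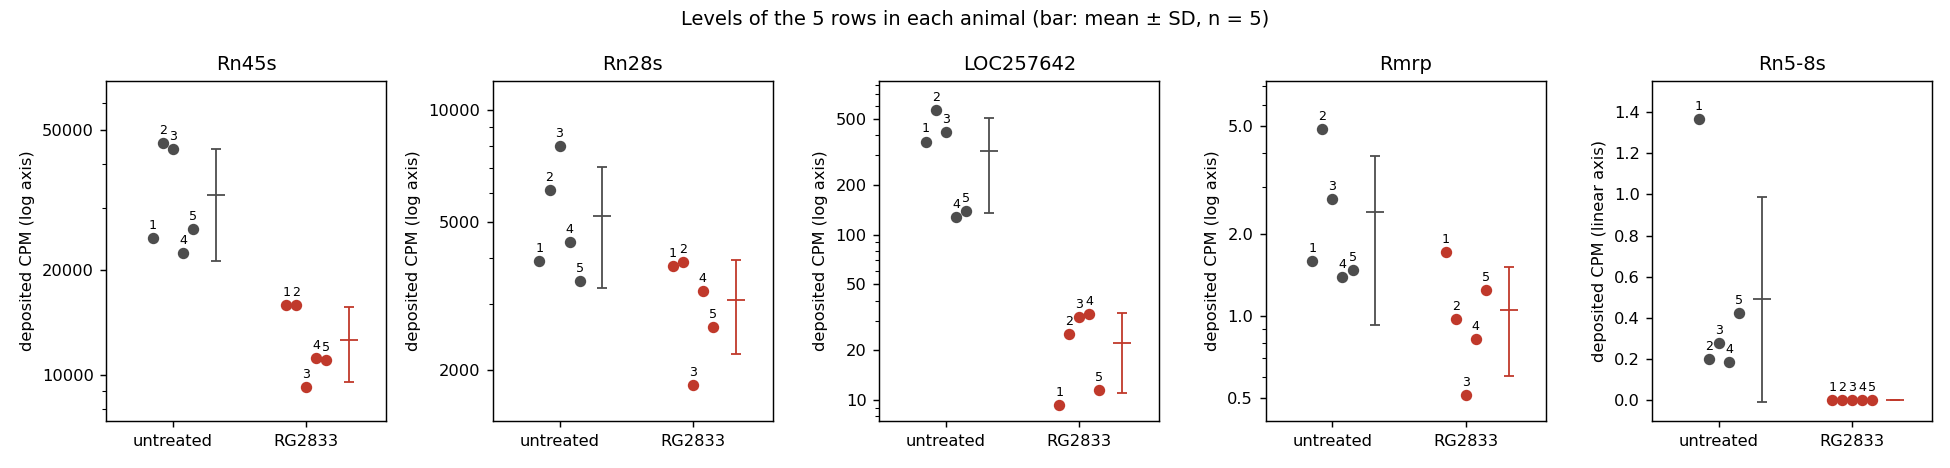
Deposited CPM of the 5 members in each animal; points are animals with their replicate number, bars are the mean ± SD of 5 animals, and the axis is logarithmic except for Rn5-8s. The groups lie apart for Rn45s, LOC257642 and Rn5-8s and overlap for Rn28s and Rmrp.

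In 3 of the 5 members, Rn45s, LOC257642 and Rn5-8s, every RG2833 value lay below every untreated value, though Rn5-8s rested on very few counts. Over all 11791 genes tested, the groups did not overlap in 7.27%, and 3.47% had all RG2833 values below. Because the members were chosen for this difference, nothing is read from that count. Per kb of the RefSeq lengths, the deposited level was 3772 ± 1323 CPM per kb (SD, n = 5) for Rn45s and 1078 ± 386 for Rn28s in untreated animals, and 1457 ± 351 and 641 ± 181 in RG2833 animals. On the same scale Rmrp was at 9.38 ± 5.76 CPM per kb in untreated and 4.12 ± 1.78 in RG2833 animals. The Rn45s row thus took the most counts per length of these 3 in both groups. Its counts can include reads of mature RNA, so this does not compare precursor with mature RNA.

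Together Rn45s, Rn28s, Rn5-8s and LOC257642 took 2.91, 5.36, 5.08, 2.70 and 3.08% of all counts in untreated replicates 1 to 5 and 1.94, 1.96, 1.13, 1.43 and 1.36% in RG2833 replicates 1 to 5. Exact 95% binomial intervals were narrow (2.69 to 2.71% in untreated replicate 4). Rn45s made up 85.5 ± 2.09% (SD, n = 5) of these counts in untreated and 80.4 ± 2.175% (SD, n = 5) in RG2833 animals. LOC257642 made up 0.809 ± 0.351% (SD, n = 5) and 0.155 ± 0.101% (SD, n = 5) of them. Without Rn45s, the remaining rows took 0.549 ± 0.186% (SD, n = 5) of all counts in untreated and 0.308 ± 0.0833% (SD, n = 5) in RG2833 animals. The difference of the group means was -2.26 percentage points for the 4 rows and -0.24 without Rn45s. If the 4 rows were left out of the totals, the CPM of every other gene would be 2.77 to 5.67% higher in untreated and 1.14 to 2.001% higher in RG2833 animals.

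Ratios between rows of the same library do not depend on the scaling of the library. They belong to the values that chose the rows and are given as a description. Because Rn45s can hold reads of mature RNA, they do not measure precursor against mature RNA. For every 100 Rn45s counts there were 15.9, 13.2, 18.0, 19.8 and 13.2 Rn28s counts in untreated replicates 1 to 5. In RG2833 replicates 1 to 5 there were 24.0, 24.5, 19.7, 29.2 and 23.7. The RG2833 animals were higher except that RG2833 replicate 3 lay just under untreated replicate 4. The mean was 16.0 ± 2.92 (SD, n = 5) against 24.2 ± 3.39 (SD, n = 5), a log2 difference of 0.60. Without untreated replicate 4 the groups did not overlap, and the log2 difference was 0.68.

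LOC257642 went the other way. There were 14.7, 12.2, 9.34, 5.73 and 5.28 LOC257642 counts per 1000 Rn45s counts in untreated replicates 1 to 5. There were 0.595, 1.57, 3.45, 2.98 and 1.05 in RG2833 replicates 1 to 5, so the groups did not overlap. The mean log2 ratio (with 3 counts added to both rows) was -6.84 ± 0.65 (SD, n = 5) in untreated and -9.28 ± 1.04 (SD, n = 5) in RG2833 animals. The difference of -2.44 stands for a 5.42-fold lower ratio.

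The ratio of Rmrp to Rn45s did not separate the groups, and 7 of the 10 animals lay in a narrow lower range. There were 64.5, 106, 61.0, 62.7 and 56.4 Rmrp counts per 1000000 Rn45s counts in untreated replicates 1 to 5, and 109, 61.8, 55.7, 73.9 and 113 in RG2833 replicates 1 to 5. The groups overlapped fully, and the mean log2 ratio, with 3 counts added to both rows, differed by 0.41, where the SD within the untreated group was 0.300 and within the RG2833 group 0.350 (n = 5). With so few Rmrp counts this value moved with the counts added. It was 0.26 with 0.5 counts added and 0.18 from group sums with none. For Rn5-8s, 23 counts against 1643079 Rn45s counts gave 14.0 per 1000000 over the untreated group (exact 95% binomial interval 8.87 to 21.0). In the RG2833 group, 0 counts stood against 647802. The floor of 3 counts is 4.63 per 1000000 there, and the exact 95% upper limit is 5.69. Set against the floor, the untreated ratio was 3.02-fold higher, and 1.67-fold higher without untreated replicate 1. Set against the upper limit, it was 2.46-fold higher with all animals. None of these values takes in the counting error of the untreated counts, so none is a lower bound.

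**Figure D2:**
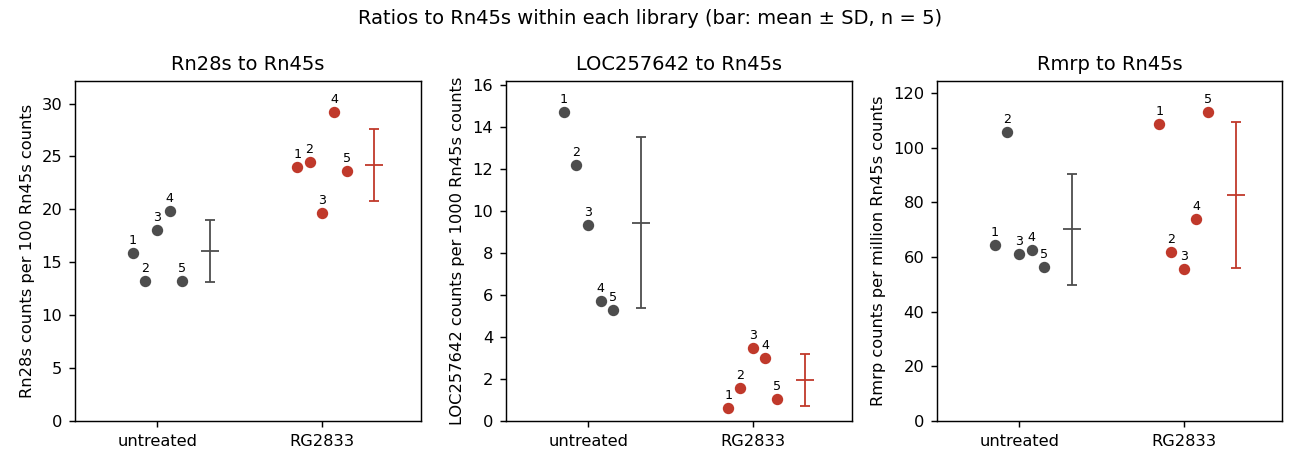
Counts of Rn28s, LOC257642 and Rmrp relative to Rn45s in each library; points are animals with their replicate number, bars are the mean ± SD of 5 animals, and all axes start at 0. The Rn28s ratio is higher (mean 24.2 against 16.0 per 100), the LOC257642 ratio lower, and the Rmrp ratio overlaps between the groups.

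The pattern over animals was compared between genes as the mean absolute difference, over the 10 animals, of log2 CPM centred on each gene's own mean. This is a description of likeness with no test, and it includes the treatment difference. It also grows with the size of a row's own deviations, whose mean absolute value was 1.89 for LOC257642 and 0.67 for Rn45s. Among the members, Rn45s differed by 0.31 from Rn28s and by 0.32 from Rmrp, but by 1.22 from LOC257642. Rn45s and LOC257642 both lay above their own means in every untreated animal and below them in every RG2833 animal. The value of 1.22 thus largely reflects the larger difference of LOC257642. Outside the members, LOC100364769, described in the deposited table as LRRG00136-like, was nearest to Rn45s at 0.16, against a median of 0.68 over the genes compared. LOC100364769 was between 9.93 and 20.04 CPM in untreated and between 4.02 and 5.75 CPM in RG2833 animals (deposited level), and the untreated replicates 2 and 3 were its highest animals, as for Rn45s. Next were LOC500035 (0.22), Gng13, a G protein gamma subunit gene (0.27), Lpin3, a lipin gene (0.30), and Fam229b (0.30). The counts of LOC100364769 and LOC500035 were whole in all 10 animals and thus show no read divided with Rn45s.

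LOC500035 was also the nearest to Rn28s (0.20, median of the genes compared 0.45), ahead of Arl11, Selv, Dmbx1 and Cldn5 (0.21 to 0.22). Cldn5 encodes a tight junction protein of endothelial cells and was one of the endothelial markers above. Nearest to Rmrp were Rps4y2 (0.26), Pstpip1 (0.27), Rtbdn (0.29), Tnnc1 (0.30) and LOC500035 (0.30).

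LOC257642 had different neighbours, which were genes with large group differences of their own (fitted log2 differences from -4.20 to -2.64). RatNP-3b, a defensin gene, was nearest at 0.30 against a median of 1.89, followed by Bc1 (0.61), the cytoplasmic RNA of neurons, the chemokine gene Ccl9 (0.68), Bnc1 (0.70), which encodes basonuclin, and LOC100363112 (0.77). RatNP-3b was between 3.27 and 12.01 CPM in untreated and between 0.104 and 0.929 CPM in RG2833 animals, where it rested on 1 to 9 counts, so its likeness within that group is weakly measured. The counts of RatNP-3b, Bc1 and Ccl9 were not whole in 10 of 10 animals and those of LOC100363112 in 9, while those of Bnc1 were whole in all 10. Of these 5 genes, 4 had a count that was not whole in at least 1 animal, against 17.5% of all genes tested. Whether they share reads with LOC257642 was not tested.

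**Figure D3:**
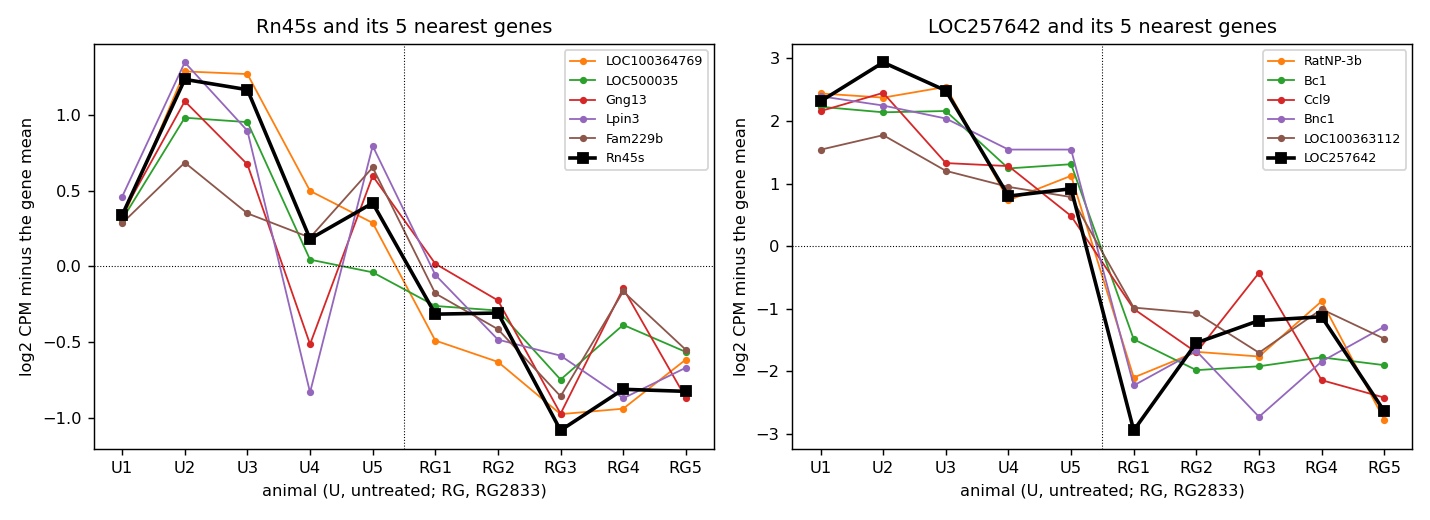
Log2 CPM of Rn45s (left) and LOC257642 (right) with their 5 nearest genes, each minus the gene's own mean over the 10 animals; lines only join the values of 1 gene, and animals have no order within a group. Rn45s and LOC100364769 are high together in untreated replicates 2 and 3, whereas LOC257642 is lowest in RG2833 replicates 1 and 5.

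Genes that make and process these RNAs were examined in the fit over all genes (edgeR quasi-likelihood test, Benjamini-Hochberg adjustment over the 11791 genes tested, called at an adjusted p under 0.05). Lists of other short RNAs, of host genes of small nucleolar RNAs and of histone genes were included. Levels of these genes are CPM after TMM scaling of the tested genes, as mean ± SD over n = 5 animals a group, and the error of a log2 fold change is its SE. Of the 132 tested genes of 9 lists, 7 were called, of which 2 rose and 5 fell with RG2833. The 7 include Bc1, from the list of short RNAs, and Hist3h2ba, from the histone list. The called share over all genes was 5.08% (2.41% higher and 2.67% lower), and that of the lists was 5.30%. The median log2 fold change was -0.034 over the lists and -0.0035 over all genes. These lists therefore held about as many calls as the table as a whole. Over all genes, 24.5% had an unadjusted p under 0.05 in edgeR, and DESeq2 called 10.9%, and the counts given for each list are to be read against these shares.

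None of the 14 tested genes of RNA polymerase I transcription was called (4 had an unadjusted p under 0.05, which is near the share over all genes, and DESeq2 called 2). The list's median log2 fold change was -0.10. Ubtf, which encodes the factor UBF that opens and activates rRNA genes, was 174 ± 14.9 CPM in untreated and 200 ± 6.02 CPM in treated rats, a difference of 0.20 ± 0.07 on the log2 scale (edgeR adjusted p = 0.104). All 5 RG2833 values of Ubtf lay above the untreated ones. Polr1a, the gene of the largest polymerase I subunit, differed by -0.0096 ± 0.091 (log2, SE; edgeR adjusted p = 0.958) and Polr1b, the second largest, by -0.068 ± 0.10 (edgeR adjusted p = 0.7098). For Rrn3, whose product recruits polymerase I to the promoter, the difference was -0.13 ± 0.07 (edgeR adjusted p = 0.252). The smaller subunit genes Znrd1 (-0.52 ± 0.15, edgeR adjusted p = 0.0600) and Polr1c (-0.24 ± 0.08, edgeR adjusted p = 0.101) had lower values in all 5 RG2833 animals than in any untreated one.

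Of 11 tested genes of the chromatin of rRNA genes, 1 was called. Sirt7, a nucleolar deacetylase known to associate with active rRNA genes rather than to silence them, rose from 21.2 ± 1.88 to 26.5 ± 1.25 CPM, with a log2 fold change of 0.32 ± 0.08 (adjusted p = 0.0480, edgeR). It was called in 1 of the 10 fits that left out 1 animal. It was also not called when Rn45s, Rn28s, Rn5-8s, LOC257642 and Rmrp were left out of the TMM scaling, without the filter on low counts, or with the choroid plexus score as a covariate (edgeR adjusted p = 0.0694). With the replicate number as a block it was not called either (edgeR adjusted p = 0.108). Phf8 (0.26, edgeR adjusted p = 0.182) and Suv39h1 (-0.30, edgeR adjusted p = 0.208), a histone demethylase and a histone methyltransferase gene, were not called.

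Of 39 tested genes of rRNA processing and of the small nucleolar ribonucleoproteins, 1 was called. Nop58, a core protein of the complexes that methylate rRNA, fell from 43.8 ± 3.25 to 31.9 ± 1.53 CPM, with a log2 fold change of -0.46 ± 0.07 (adjusted p = 0.00932, edgeR). Its untreated values ran from 39.4 to 48.3 CPM and its RG2833 values from 30.1 to 34.1 CPM, and leaving out any 1 of the 10 animals kept its call. Npm1, the abundant nucleolar protein nucleophosmin, was 193 ± 13.5 and 162 ± 8.69 CPM, with a log2 fold change of -0.25 ± 0.07 (adjusted p = 0.0588, edgeR). Nhp2, a protein of the complexes that make pseudouridine, was 35.9 ± 4.54 and 28.2 ± 2.24 CPM (-0.34 ± 0.10; edgeR adjusted p = 0.0634). Npm1 and Nhp2 were not called. The groups did not overlap in 6 of the 39 genes, against 7.27% over all genes, and went both ways: Nop58, Npm1 and Nhp2 were lower in RG2833 animals, and Bop1, Nop2 and Imp4 (chosen after their values were seen) were higher, with log2 fold changes of 0.30, 0.19 and 0.15, and were not called. The median over the list was -0.034.

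The protein partners of Rmrp were all measured. None of the 11 genes of RNase MRP and RNase P proteins was called (3 had an unadjusted p under 0.05, again near the share over all genes, and DESeq2 called 0), and their median log2 fold change was -0.14. Rpp25l (-0.36 ± 0.11, SE; edgeR adjusted p = 0.0798), Pop4 (-0.27 ± 0.09; edgeR adjusted p = 0.0984) and Rpp21 (-0.35 ± 0.12; edgeR adjusted p = 0.106) had the smallest p-values. The log2 fold changes of Rpp14, Pop5, Rpp40, Pop7, Rpp38 and Rpp25 lay between -0.18 and -0.060, and those of Rpp30 and Pop1, the largest protein of the complex, were 0.090 and 0.022. Rmrp itself had a fitted difference of -1.18, outside this range of -0.36 to 0.090.

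RNA polymerase III, which transcribes Rmrp, gave 0 calls among 27 tested genes (1 had an unadjusted p under 0.05, a smaller share than the 24.5% over all genes, and DESeq2 called 0), with a median log2 fold change of 0.050. Gtf3c4, a subunit of the factor TFIIIC, had the smallest p-value (0.36 ± 0.16, SE; edgeR adjusted p = 0.176). The subunit gene Polr3k differed by -0.18 (edgeR adjusted p = 0.2599).

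Among 17 tested genes of the RNA exosome and nuclear RNA decay, which trim and degrade rRNA precursors, 3 were called and they did not go 1 way. Exosc3, a cap subunit, rose from 9.31 ± 1.01 to 13.1 ± 1.30 CPM, with a log2 fold change of 0.49 ± 0.11 (adjusted p = 0.0345, edgeR). Exosc7, a ring subunit, fell from 15.2 ± 1.98 to 10.9 ± 1.12 CPM (-0.48 ± 0.12; edgeR adjusted p = 0.0413). C1d, a cofactor of the nuclear exosome, fell from 40.7 ± 1.34 to 33.4 ± 2.55 CPM (-0.28 ± 0.07; edgeR adjusted p = 0.0448). Each was called in 2 of the 10 fits that left out 1 animal, and none of the 3 was called with the choroid plexus score as a covariate (edgeR adjusted p from 0.0633 to 0.0782). With the replicate number as a block, none of the 3 was called (edgeR adjusted p from 0.0612 to 0.0943). Without the filter on low counts C1d was not called (edgeR adjusted p = 0.0586). The list's median was -0.063.

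Other RNAs without a poly(A) tail were few among the tested rows. Of the short RNAs listed, only Bc1 was tested, and it fell from 266 ± 83.4 to 20.5 ± 3.00 CPM, with a log2 fold change of -3.69 ± 0.22 (adjusted p = 5.73e-06, edgeR). Terc, the telomerase RNA, was in the table but did not pass the filter. Replication-dependent histone mRNAs typically end in a stem-loop and not in a tail. Whether the histone transcripts counted here carried a tail is not known. Of their 10 tested genes, 1 was called: Hist3h2ba, an H2B gene, fell from 41.6 ± 4.82 to 29.1 ± 2.97 CPM, with a log2 fold change of -0.51 ± 0.10 (adjusted p = 0.0183, edgeR), in 6 of the 10 fits that left out 1 animal. The median of these histone genes was 0.21, with 6 of the 10 higher and 4 lower in RG2833 animals. Hist1h2bk (0.66 ± 0.22; edgeR adjusted p = 0.0929) and Hist2h2ab (0.40 ± 0.14; edgeR adjusted p = 0.115) had positive differences and were not called. Many histone genes are near-identical copies, which can make their estimated counts uncertain. How far this held for these genes was not tested.

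The host genes of small nucleolar RNAs were represented by 2 tested genes, and 0 were called (1 had an unadjusted p under 0.05, and DESeq2 called 1). Gas5 was 25.9 CPM on average in untreated animals (18.2 to 35.0) and between 15.2 and 20.4 CPM in RG2833 animals, with a log2 fold change of -0.55 ± 0.18 (adjusted p = 0.0897, edgeR). Snhg11 differed by -0.17 ± 0.13 (edgeR adjusted p = 0.423).

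**Figure D4:**
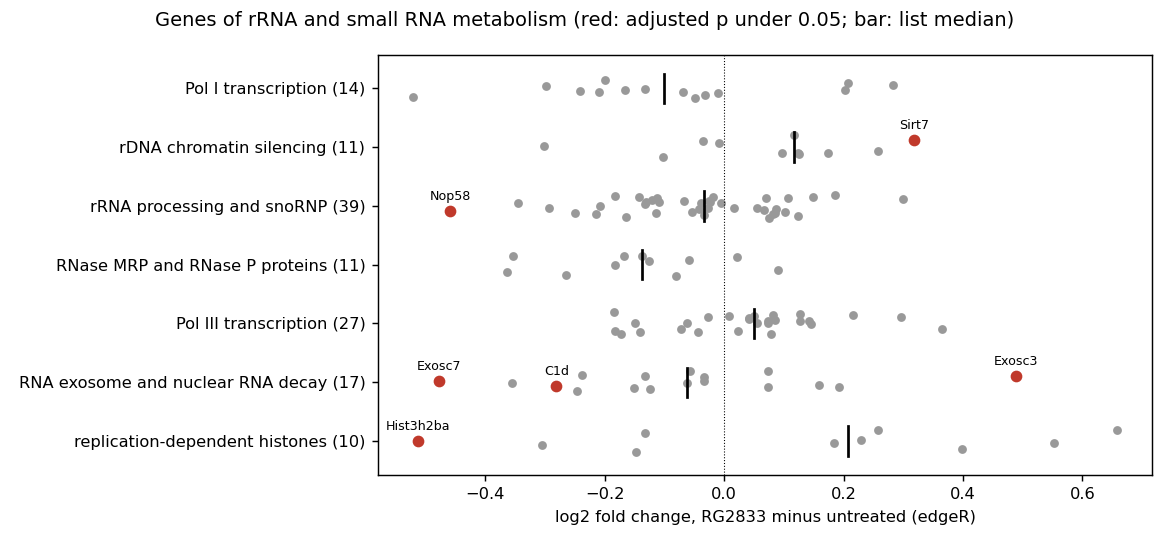
Log2 fold change (RG2833 minus untreated, edgeR) of each tested gene of the 7 lists with more than 2 tested genes, with the number tested in brackets; red points passed an adjusted p under 0.05 and vertical bars are list medians. The called genes lie on both sides of 0, and the polymerase I, RNase MRP and polymerase III lists hold no red point.

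The calls on these lists depended on single animals. Without untreated replicate 4 there were 15 calls, without untreated replicate 5 there were 11, and without any 1 of the other 8 animals there were 2 or 3. With the log2 share of these 4 rows (Rn45s, Rn28s, Rn5-8s and LOC257642) as a covariate, 1 gene of the lists was called, Bc1 (edgeR adjusted p = 0.0179). This share did not overlap between the groups, so a difference between groups and a difference along the share cannot be told apart.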

How the data were processed

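Libraries were made from column-purified RNA with a stranded mRNA kit, per the labels' protocols. Per the submitters' processing notes, the tools were bcl2fastq 2.17, Bowtie2 2.1.0, RSEM 1.2.15 and edgeR, with build rn6; the annotation and the strand setting are not given in the sources used here. The authors deposited RSEM expected counts and a normalised signal, which is CPM after TMM scaling, per the file names. Expected counts were rounded. Genes with low counts were removed (filterByExpr), which left 11791, and edgeR 4.0.16 (R 4.3.3) quasi-likelihood tests with TMM scaling compared 5 untreated with 5 RG2833 animals; DESeq2 1.42.0 and limma 3.58.1 were alternatives. Log2 CPM used a prior count of 2. Columns were matched to samples by title. P-values measure the spread between these libraries. Across 20 pairs within groups, the chi-square per degree of freedom was 4.60 or more, so no library was a duplicate. On simulated counts with 200 of 11737 genes changed by 1 log2 unit, edgeR recovered 170 with 12 false calls. Genes were simulated independently of each other, and apart from Bc1 the called list genes differed by less than 1 log2 unit. The simulation thus does not measure how reliable those calls are.

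The members and gene lists were chosen with earlier results of these data known. Named genes were the members, per list every called gene and the 3 with the smallest p, all RNase MRP proteins, 4 polymerase I genes, and the 5 nearest genes of each member with a mean log2 CPM of at least 0; Terc and some markers were added after their values were seen. The result of 1 gene under this rule is not reported here. Because Rn5-8s was at 0 in every RG2833 animal, its difference and ratio were set against the floor over group sums, with no fit or pseudocount.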

Additional observations from a re-analysis of the deposited data

Results flagged for a closer look

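Of 121 groups of 5 values, 7 had a single value that exceeded Dixon's 95% limit (0.71) for its gap to the rest, and about 6.05 would do so by chance. For the members, untreated replicate 1 stood out in Rn5-8s with 1.37 CPM, where its group otherwise had 0.187 to 0.423 CPM. Untreated replicate 2 stood out in the Rmrp ratio with 106 per 1000000 Rn45s counts, where its group otherwise had 56.4 to 64.5. RG2833 replicate 5 was low in 2 genes of the lists. Its Exosc7 level was 8.89 CPM (rest of the group 11.1 to 11.6) and its Polr1c level 19.0 CPM (rest 22.1 to 22.8). Rpp40 was high in untreated replicate 1 with 6.75 CPM (rest 5.47 to 5.77). Selv, a neighbour of Rn28s, was high in RG2833 replicate 1 with 3.72 CPM (rest 2.59 to 2.89). Snhg11 was low in RG2833 replicate 4 with 128 CPM (rest 199 to 225).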

How the results depend on the processing

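The members' log2 differences kept their sign under every alternative run. Under the other scalings, the replicate block, no filter and the deposited values they ran from -1.38 to -1.33 for Rn45s, -0.76 to -0.71 for Rn28s, -3.86 to -3.78 for LOC257642 and -1.19 to -0.73 for Rmrp. When each animal was left out in turn they ran from -1.48 to -1.21, -0.86 to -0.55, -4.05 to -3.55 and -1.42 to -0.75. The value for Rn5-8s set against the floor ran from -3.19 to -2.19 and was -2.96 with TMM library sizes. The filters, other fits and pseudocounts were not run for it, since every RG2833 count was 0. The difference in the summed share of Rn45s, Rn28s, Rn5-8s and LOC257642 ran from -2.54 to -1.88 percentage points when an animal was left out and was -0.24 without Rn45s, which holds most of these counts. The log2 ratios to Rn45s ran from 0.53 to 0.68 for Rn28s, -2.72 to -2.09 for LOC257642 and 0.31 to 0.54 for Rmrp, for which group sums gave 0.18.

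The 7 calls on the gene lists became 3 with the replicate block, 13 with DESeq2's Wald test, 1 when this share was a covariate, 3 with the choroid plexus score as a covariate (2 of its 6 genes were tested), 17 at an adjusted p under 0.1, and 2 to 15 when an animal was left out. The cause was not tested. Over all genes the 599 calls became 180 with the block, 1286 with DESeq2, 2 with the share and 241 with the choroid plexus score as a covariate, and 98 to 1556 when an animal was left out. The calls on the lists were 5 to 8 under the other scalings and filters and limma trend, and the call of Sirt7 was lost without the filter, with TMM scaling that left out the members, and with the block (adjusted p = 0.108, edgeR). C1d was also not called without the filter (adjusted p = 0.0586, edgeR), and Exosc3, Exosc7 and C1d were not called with the block (adjusted p from 0.0612 to 0.0943, edgeR). Same-numbered animals are different animals. The correlation of their deviations was between -0.32 and 0.15. Animals of different numbers were not compared in this way, so whether same numbers shared a batch was not tested. Rows of few counts, Rn5-8s and Rmrp, are limited by depth.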
